A study of Drosophila melanogaster and Drosophila melanogaster x Drosophila simulans and Drosophila simulans with 6 samples.

Results

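The genes described here encode the proteins of the large subunit of the cytoplasmic ribosome of Drosophila melanogaster. They were chosen by name from the RpL and RpLP genes, leaving out RpL22, RpL22-like, RpL41 and minor paralogs such as RpL37-2 and RpL10Aa, and make up 46 of the 13973 D. melanogaster rows of the expression table, which also holds 14256 D. simulans rows. They run from RpL3 (Dmel_CG4863), RpL4 (Dmel_CG5502) and RpL5 (Dmel_CG17489) to RpLP0 (Dmel_CG7490), RpLP1 (Dmel_CG4087) and RpLP2 (Dmel_CG4918). The study asked how ovarian gene expression differs between sterile F1 hybrid females and their parents. The hybrids came from D. melanogaster Hmr2 females crossed to D. simulans w501 males, so that each carries a D. melanogaster and a D. simulans allele of every autosomal and X-linked gene. The reference was the D. melanogaster Hmr2 line itself (y[2] Hmr[2] with In(1)w[m4] and In(1)AB). The hybrids received the same X chromosome, with its inversions and the Hmr[2] allele, from their mothers. The In(1)AB inversion moves a satellite block of the X out of its pericentric heterochromatin. D. simulans w501 ovaries, in 2 libraries, served to count D. simulans reads on D. melanogaster rows and entered an alternative fit of all groups. The study aged hybrid females to 3 to 6 days and dissected hybrid and parental ovaries of that age for its microscopy. It names no age for the females of the libraries analysed here. The hybrids were raised at 20 °C, and no rearing temperature of the parental females was found in the sources used here. Hybrid ovaries of reduced size and poor form were set aside, so the hybrid libraries stand for the better developed part of the hybrid ovaries.

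Each group had 2 polyA libraries, described by the study as biological replicates. With 2 libraries a group, the error of a mean rests on a pair of values. Levels are given as CPM, estimated counts scaled to 1000000 counts on the D. melanogaster rows of a library after TMM scaling. The loss of D. melanogaster gene dose shared by all genes of a hybrid is thus scaled out. The D. simulans alleles were not analysed here, so the whole level of a gene in hybrids is not given. A log2 fold change is hybrid over D. melanogaster Hmr2, with its standard error (SE), from edgeR's quasi-likelihood test over 8202 D. melanogaster genes, and adjusted p-values are Benjamini-Hochberg values over those 8202 genes.

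Ribosomes translate all messenger RNAs, and the large subunit holds the peptidyl transferase centre, the exit tunnel for the nascent chain and the stalk that recruits elongation factors. Its proteins are made in nearly equal numbers, and ribosomal protein messages are among the most abundant of any growing cell. In the fly ovary the nurse cells make most of the ribosomes that are stored in the egg. In Drosophila, loss of a single copy of many ribosomal protein genes gives the dominant Minute phenotype of slow development and short bristles.

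The libraries held between 12981002 and 22363396 estimated counts. D. melanogaster rows took 45.1% and 47.7% of the counts in the hybrid libraries, against 97.0% and 97.3% in the D. melanogaster Hmr2 libraries. The germline genes vas, osk and nanos were present in all libraries of both groups. The D. melanogaster Hmr2 libraries differed from each other more than the hybrid libraries did, and the large subunit genes took part in that difference. All 46 were higher in D. melanogaster Hmr2 replicate 1 than in replicate 2, with a median ratio of 1.65. Between the hybrid libraries the median log2 ratio of the 46 genes was −0.01. Values without a D. melanogaster Hmr2 library are therefore given beside several results below.

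Large subunit messages took a smaller share of the D. melanogaster RNA in hybrid ovaries. The 46 genes together took 3.96% and 3.90% of the D. melanogaster counts in the hybrid libraries, against 10.1% and 6.65% in the D. melanogaster Hmr2 libraries. The group means were 3.93% ± 0.05 in hybrids and 8.35% ± 2.42 in D. melanogaster Hmr2 (SD, n = 2 each). The hybrid libraries lay below both D. melanogaster Hmr2 libraries, and the D. melanogaster Hmr2 libraries were much further from each other than the hybrid libraries. The 95% Wilson intervals, which cover counting error only, ran from 3.88% to 3.97% over the hybrid libraries and from 6.63% to 10.1% over the D. melanogaster Hmr2 libraries. An exact permutation test of 2 against 2 libraries cannot give a p below 0.333, and none was run on these shares.

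**Figure D1:**
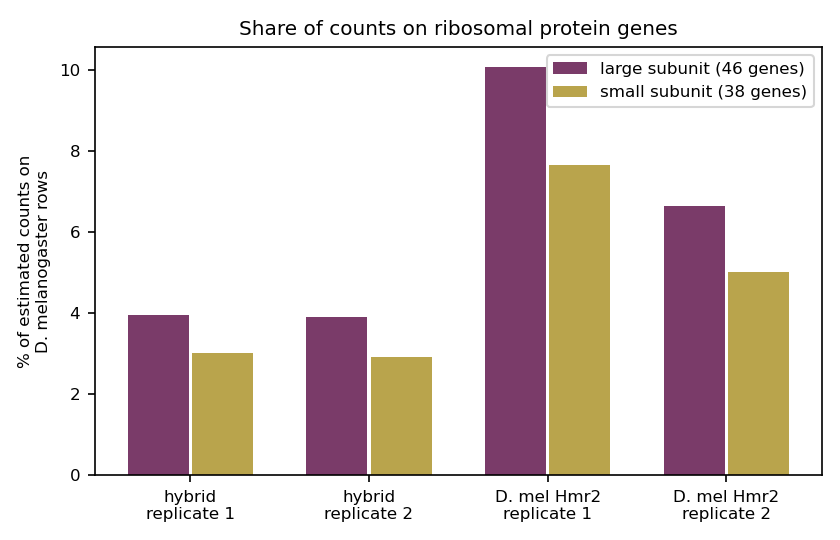
Bars give the percentage of estimated counts on D. melanogaster rows that fell on 46 large subunit genes and 38 small subunit genes in each library. Both hybrid libraries are below both D. melanogaster Hmr2 libraries, at 3.96% and 3.90% against 10.1% and 6.65% for the large subunit.

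Every one of the 46 genes was measured well enough to be tested, and every fitted log2 fold change was below 0. At an adjusted p below 0.05, 41 of 46 were lower in hybrids, where 15.0% of all tested genes were called lower. None was higher by edgeR, where 6.8% of all tested genes were called higher. With every edgeR fold change below 0, no member could be higher at an unadjusted p below 0.05, and DESeq2 gave 0 as well. A fall of at least 2-fold at that adjusted p was called for 39, where 10.3% of all tested genes passed. Both hybrid libraries lay below both D. melanogaster Hmr2 libraries for 45 genes, against 37.2% of all tested genes. RpL39 was the exception. The median log2 fold change was −1.23, or 42.6% of the D. melanogaster Hmr2 level, while the median over all tested genes was 0.00. The 445 other tested genes outside the small subunit that were at least as abundant as RpL34a in D. melanogaster Hmr2 had a median log2 fold change of −0.04, and 73 of them (16.4%) were called lower and 20 higher.

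The size of the fall depended on which D. melanogaster Hmr2 library was used. The median log2 fold change of the 46 genes was −0.83 without D. melanogaster Hmr2 replicate 1 and −1.58 without replicate 2. The spread was then estimated from the hybrid pair alone, which lay closer together, so counts of called genes from these fits are not given. Without hybrid replicate 1 and without hybrid replicate 2 the medians were −1.26 and −1.20. Far fewer genes were then called lower, since the spread was estimated from the D. melanogaster Hmr2 pair alone. The genes called lower whichever library was left out were RpL10Ab, RpL14, RpL28, RpL30, RpLP0 and RpLP2. As these are ovaries in bulk, fewer cells of a type and less RNA per cell cannot be told apart.

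**Figure D2:**
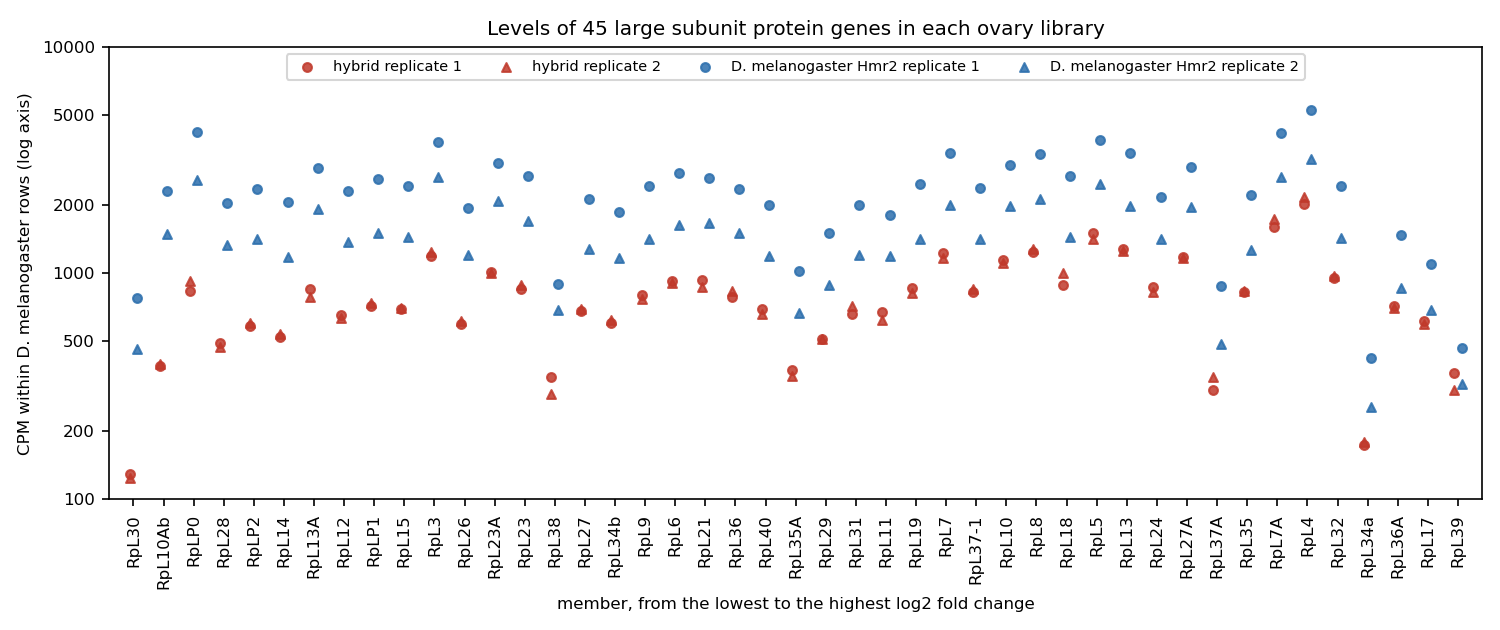
CPM within D. melanogaster rows (log axis) of 45 of the 46 large subunit genes, with a point for each library, hybrid in red and D. melanogaster Hmr2 in blue. The hybrid points of a gene nearly coincide, the D. melanogaster Hmr2 points differ by a median ratio of 1.65, and the hybrid points are the lower ones for all of these genes but RpL39.

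The stalk proteins were among the genes that fell most. The stalk binds and activates the GTPase factors of translation, with RpLP0 as the anchor of the acidic proteins RpLP1 and RpLP2, and RpL12 at its base. RpLP0 (chromosome 3L, 22075867 to 22077487, Release 6) had 835 and 924 CPM in hybrids, against 4229 and 2576 CPM in D. melanogaster Hmr2. Its log2 fold change was −1.95 (SE 0.30, adjusted p = 0.00586 by edgeR). The D. melanogaster row in hybrids was thus at 25.8% of the D. melanogaster Hmr2 level. RpLP2 (2R, 16586129 to 16586732) had 587 and 604 CPM in hybrids, against 2365 and 1412 CPM in D. melanogaster Hmr2, a log2 fold change of −1.67 (SE 0.28, adjusted p = 0.00869). In RpLP1 (2L, 419952 to 420864), hybrids had 715 and 736 CPM and D. melanogaster Hmr2 2621 and 1507 CPM. The groups did not overlap for any of these genes. RpL12 had 656 and 633 CPM in hybrids, against 2321 and 1373 CPM in D. melanogaster Hmr2. The log2 fold changes of RpLP1 and RpL12 were −1.51 (adjusted p = 0.0136) and −1.52 (adjusted p = 0.0118). All 4 stalk genes were called lower, between −1.95 and −1.51.

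On the opposite side of the subunit, the L1 stalk contacts the outgoing tRNA, and its protein is encoded by RpL10Ab (3L, 11822851 to 11824211). RpL10Ab had 391 and 398 CPM in hybrids, against 2319 and 1487 CPM in D. melanogaster Hmr2, and fell by 2.27 on the log2 scale (SE 0.27, adjusted p = 0.00231 by edgeR). RpL30 (2L, 19008031 to 19009306), known in yeast for binding and repressing its own transcript, fell furthest. It had 129 and 124 CPM in hybrids, against 774 and 462 CPM in D. melanogaster Hmr2, with a log2 fold change of −2.28 (SE 0.26, adjusted p = 0.00218). In hybrids the D. melanogaster rows were thus at 20.5% of the D. melanogaster Hmr2 level for RpL30 and 20.7% for RpL10Ab. Without D. melanogaster Hmr2 replicate 1 the log2 fold changes were still −1.87 for RpL30 and −1.92 for RpL10Ab. Of the exonic bases of RpL30, 25.1% overlap CG31793 on the other strand, whose level was 24.0 and 22.4 CPM in hybrids against 42.9 and 49.5 CPM in D. melanogaster Hmr2. The quantification options listed by the study name no strand setting, so reads in that overlap cannot be told apart.

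RpL28 and RpL14, proteins of the eukaryotic ribosome that bacterial ribosomes lack, completed the 6 lowest fold changes. RpL28 had 489 and 474 CPM in hybrids, against 2049 and 1332 CPM in D. melanogaster Hmr2, a log2 fold change of −1.81 (SE 0.26, adjusted p = 0.00467 by edgeR). RpL14 had 520 and 538 CPM in hybrids, against 2065 and 1180 CPM in D. melanogaster Hmr2, a log2 fold change of −1.62 (SE 0.29, adjusted p = 0.0104). RpL13A followed at −1.57 (SE 0.27, adjusted p = 0.00877). In each of these genes the lower D. melanogaster Hmr2 library was more than the higher hybrid library.

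The proteins that carry the 5S rRNA into the subunit, RpL5 and RpL11, moved with the middle of the group. In mammals the same pair binds the p53 regulator MDM2 when ribosome assembly stalls. RpL5 (2L, 22532279 to 22536884) had 1512 and 1414 CPM in hybrids, against 3881 and 2475 CPM in D. melanogaster Hmr2, and RpL11 (2R, 19442342 to 19443825) had 674 and 618 CPM in hybrids, against 1803 and 1193 CPM. Their log2 fold changes were −1.12 (SE 0.28, adjusted p = 0.0306 by edgeR) and −1.21 (SE 0.25, adjusted p = 0.0167).

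Around the peptidyl transferase centre, RpL3, RpL8 and RpL10 were all called lower, with log2 fold changes between −1.41 and −1.13. RpL3 (3R, 11221894 to 11225173), the longest protein of the group at 416 codons, had 1188 and 1246 CPM in hybrids, against 3811 and 2659 CPM in D. melanogaster Hmr2 (log2 fold change −1.41, SE 0.26, adjusted p = 0.0115 by edgeR). RpL10, which is added late in assembly, had 1143 and 1108 CPM in hybrids, against 3020 and 1974 CPM in D. melanogaster Hmr2. At the tunnel exit, where targeting factors and chaperones dock on RpL23A, RpL26 and RpL35 and on their neighbours RpL19 and RpL31, all 5 genes were called lower, between −1.38 for RpL26 and −1.06 for RpL35.

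The wall of the exit tunnel is lined by RpL4, RpL17 and RpL39, and these 3 genes missed the threshold, with calls that changed under some alternatives for each of them. RpL4 (3R, 27922821 to 27924888) had the highest CPM of all 46, 2026 and 2176 in hybrids, against 5244 and 3201 in D. melanogaster Hmr2, and its log2 fold change of −1.01 (SE 0.30) had an adjusted p of 0.0504 by edgeR, at the edge of the threshold. It was called lower by DESeq2 (adjusted p = 0.000303) and with the filter at 1 count. The log2 fold change of RpL4 was −0.61 without D. melanogaster Hmr2 replicate 1 and −1.35 without replicate 2. RpL17 (X, 6741537 to 6744238) had 617 and 598 CPM in hybrids, against 1100 and 684 CPM in D. melanogaster Hmr2 (log2 fold change −0.55, SE 0.25, adjusted p = 0.14). It was called lower with D. simulans reads subtracted, as given further down. The log2 fold change of RpL17 was −0.18 without D. melanogaster Hmr2 replicate 1 and −0.89 without replicate 2. RpL39 (2R, 24061853 to 24062431), the shortest protein at 51 codons, had 360 and 305 CPM in hybrids, against 466 and 323 CPM in D. melanogaster Hmr2. Its groups overlapped, with a log2 fold change of −0.24 (SE 0.22, adjusted p = 0.419 by edgeR). That fold change turned to 0.037 without D. melanogaster Hmr2 replicate 1 and was −0.52 without replicate 2. RpL17 and RpL39 are also rows on which D. simulans reads fell, as described further down.

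Outside the tunnel, RpL36A missed the threshold. This gene, whose protein lies at the exit site for tRNA, had 718 and 700 CPM in hybrids, against 1482 and 861 CPM in D. melanogaster Hmr2 (log2 fold change −0.72, SE 0.28, adjusted p = 0.0942 by edgeR). It was called lower by DESeq2 (adjusted p = 0.0182). The log2 fold change of RpL36A was −0.29 without D. melanogaster Hmr2 replicate 1 and −1.09 without replicate 2. Its D. simulans reads were few, at 0.154% of the level in the other libraries. RpL32 and RpL34a passed the adjusted p and missed 2-fold.

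**Figure D3:**
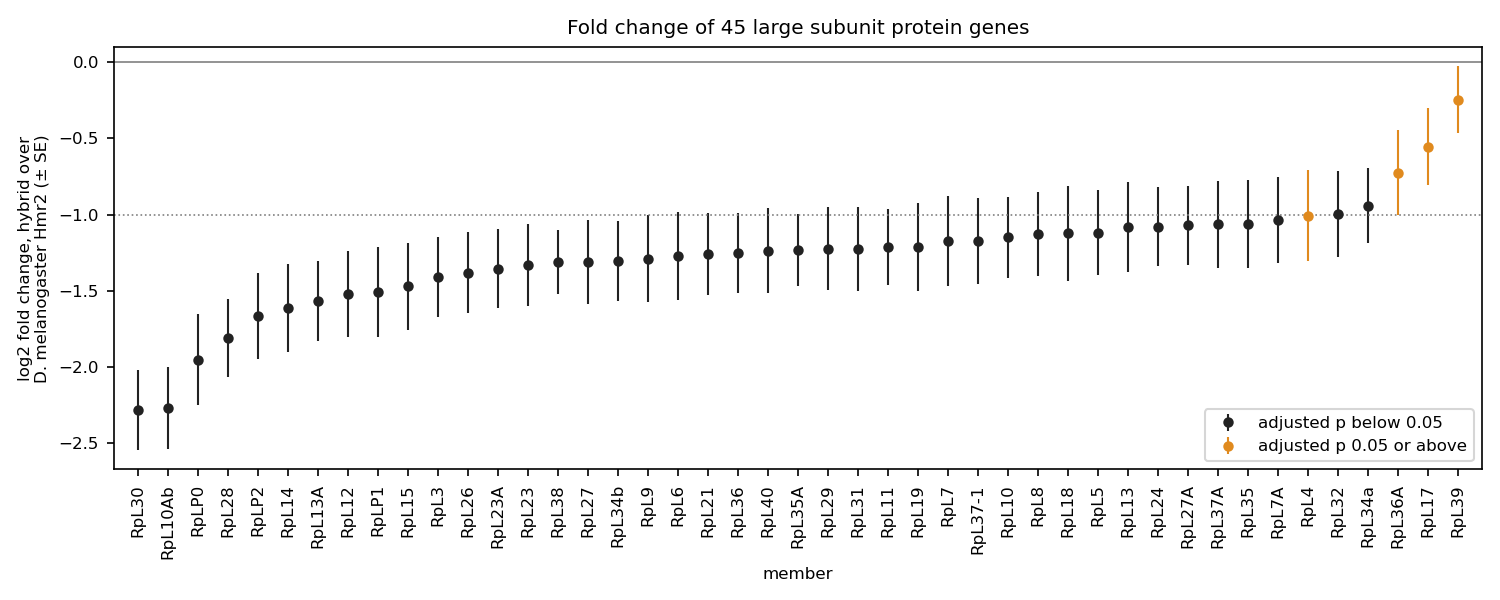
Log2 fold change, hybrid over D. melanogaster Hmr2, of 45 of the 46 genes with bars of 1 SE, ordered from RpL30 (−2.28) to RpL39 (−0.24), with the 2-fold line dotted. The 4 genes in orange (RpL4, RpL36A, RpL17 and RpL39) had an adjusted p of 0.05 or above.

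RpL32, also called rp49, is widely used to normalise fly transcript measurements and was the reference gene of the RT-qPCR in the study. The study lists an rp49 primer pair with no species named, and separate pairs for each species for the other genes. The D. simulans RpL32 allele was not analysed here, so the values below do not give the level of that reference in hybrids. The D. melanogaster RpL32 row (3R, 30045229 to 30046161) had 957 and 969 CPM in hybrids, against 2421 and 1428 CPM in D. melanogaster Hmr2. Its log2 fold change was −0.999 (SE 0.28, adjusted p = 0.0431 by edgeR), and it was −0.58 without D. melanogaster Hmr2 replicate 1, −1.36 without replicate 2 and −1.67 (adjusted p = 0.00923) with the expected D. simulans reads subtracted. RpL32 also carried more D. simulans reads than most members, so this is a fold change of a row that is not wholly D. melanogaster in hybrids.

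RpL34a and RpL34b encode the same subunit protein from separate loci on 3R, and their reads can be split wrongly between the copies. RpL34b had 602 and 621 CPM in hybrids, against 1863 and 1164 CPM in D. melanogaster Hmr2 (log2 fold change −1.31, SE 0.26, adjusted p = 0.0155 by edgeR). The minor copy RpL34a had 174 and 180 CPM in hybrids, against 423 and 255 CPM in D. melanogaster Hmr2 (log2 fold change −0.94, SE 0.25, adjusted p = 0.0345). Both copies were called lower, and the difference between their fold changes was not tested. RpL40, which is made as a ubiquitin fusion, had 698 and 657 CPM in hybrids, against 2010 and 1186 CPM in D. melanogaster Hmr2 (log2 fold change −1.24, SE 0.28, adjusted p = 0.0223). RpL38, known in the mouse for its part in the translation of Hox messages, had 347 and 291 CPM in hybrids, against 897 and 689 CPM in D. melanogaster Hmr2 (log2 fold change −1.31, SE 0.21, adjusted p = 0.0072).

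Most other members were called lower and lay close together. They include RpL23 and RpL24, which hold the docking site of the anti-association factor eIF6, with log2 fold changes of −1.33 and −1.08. RpL15 and RpL7A, needed for the processing of rRNA in yeast, had −1.47 and −1.04. RpL27A and RpL37A were at −1.07 and −1.06. Over the whole group the adjusted p-values of called genes ran from 0.00218 to 0.0431 by edgeR.

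Compared per length, the members were far from equal as messages. In TPM rescaled to sum to 1000000 over D. melanogaster rows, the 46 genes ranged from 564 to 4329 in hybrids, with a median of 2354, and from 835 to 7136 in D. melanogaster Hmr2, with a median of 4037. RpL29 was highest in both groups, at 4329 TPM in hybrids and 7136 TPM in D. melanogaster Hmr2. The lowest was RpL30 in hybrids, at 564 TPM, and RpL34a in D. melanogaster Hmr2, at 835 TPM. Among the 100 most abundant D. melanogaster genes by TPM, 39 were members in hybrids and 42 in D. melanogaster Hmr2. On this scale, which divides by transcript length and has no TMM correction, the distance between the groups is smaller than in CPM. What each of these adds to the difference was not tested. RpL39 even averaged 3096 TPM in hybrids and 2613 TPM in D. melanogaster Hmr2. The TPM of the shortest transcripts, RpL29 and RpL39 among them, depend most on the fragment length of 100 bases set in the quantification.

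The proportions of the members to each other were nearly fixed between libraries of a group and shifted between groups. Each gene's CPM was set against the median member of the same library, which takes out any change common to the group, including the difference between the D. melanogaster Hmr2 libraries. Across the 46 genes these relative levels correlated at 0.99 between the hybrid libraries and at 0.99 between the D. melanogaster Hmr2 libraries, and at 0.89 between the group means. These correlations are across genes, which are not independent replicates. The SD over genes of the log2 ratio between replicates was 0.09 in hybrids and 0.10 in D. melanogaster Hmr2, while the SD over genes of the log2 fold change between groups was 0.37. RpL30 stood at −2.62 and −2.65 relative to the median member on the log2 scale in hybrids, against −1.61 and −1.62 in D. melanogaster Hmr2. RpL10Ab stood at −1.02 and −0.97 in hybrids, against −0.03 and 0.07 in D. melanogaster Hmr2. RpLP0 stood at 0.07 and 0.25 in hybrids, against 0.84 and 0.86 in D. melanogaster Hmr2. These 3 genes had the lowest log2 fold changes of the 46, so their lower level relative to the median member follows from that choice. In the other direction, RpL36A stood at −0.14 and −0.15 in hybrids, against −0.68 and −0.72 in D. melanogaster Hmr2. RpL3 and RpL40, by contrast, shifted by −0.17 and 0.03. These are descriptions with no test. The 46 genes include RpL39, RpL17, RpL32 and RpL27A, on whose rows D. simulans reads fell, as described further down. What those reads add to the shift between groups was not tested.

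**Figure D4:**
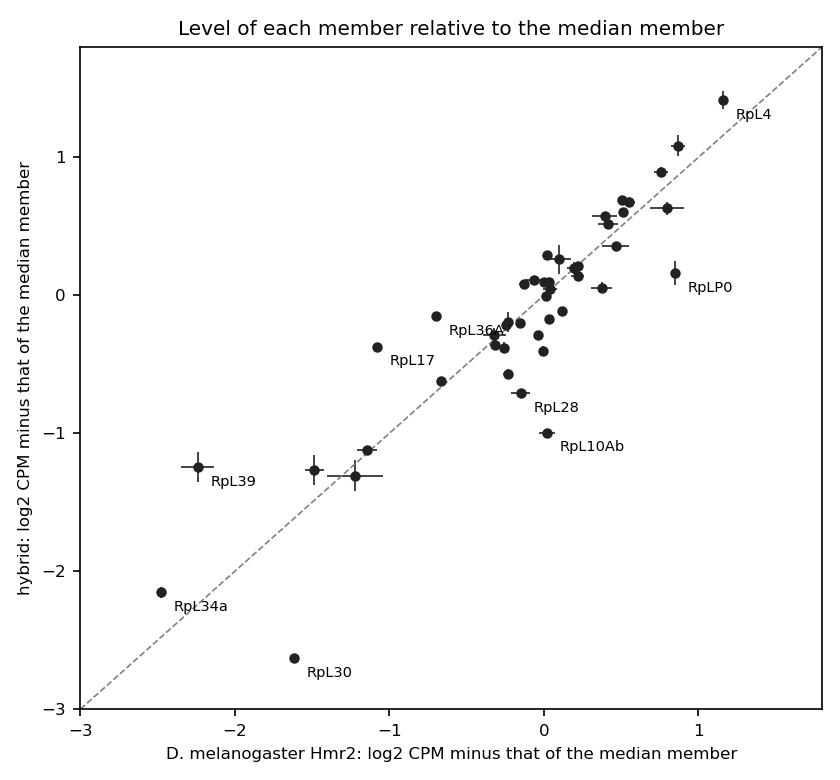
Mean log2 CPM of 45 of the 46 genes minus that of the median member of the same library, hybrid on the vertical axis and D. melanogaster Hmr2 on the horizontal axis, with bars from the lower to the higher library and the line of equality dashed. RpL30, RpL10Ab, RpLP0 and RpL28 lie below the line, and RpL39, RpL17 and RpL36A lie above it. The RpL39 and RpL17 rows also took D. simulans reads.

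Reads of D. simulans can land on D. melanogaster rows where the sequences are alike, and D. simulans w501 libraries show how many. Scaled by the counts of both species, the D. simulans w501 level of a member row was a median of 0.109% of the higher of its hybrid and D. melanogaster Hmr2 means, and below 1% for 40 of 46. It was over 5% for 4 genes, at 86.0% for RpL39, 19.3% for RpL32, 16.1% for RpL17 and 9.67% for RpL27A. The next highest was RpL10Ab at 1.33%. If D. simulans transcripts of these genes were at the same level in hybrids as in D. simulans w501, which was not tested, 2869 and 2781 D. simulans counts would be expected on RpL39 in the hybrid libraries, where 2904 and 2591 were found, so the RpL39 row cannot be taken as a measure of the D. melanogaster allele in hybrids. On RpL32, under the same assumption, 3130 and 3033 D. simulans counts would be expected of 7708 and 8228 found. When the expected counts were subtracted from the hybrid libraries, the log2 fold change was −1.67 for RpL32 (adjusted p = 0.00923 by edgeR), −0.91 for RpL17 (adjusted p = 0.0404) and −1.36 for RpL27A (adjusted p = 0.0131). With that subtraction 35 and 0 counts were left on RpL39, which gives no usable test, and 42 of the other 45 genes were called lower, RpL17 being the addition. The opposite exchange, D. melanogaster reads placed on D. simulans rows, took 2.99% and 2.73% of all counts in the D. melanogaster Hmr2 libraries, and its part for each member was not tested.

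The members are scattered over the genome, with 12 on 2L, 10 on 2R, 10 on 3L, 9 on 3R and 5 on X. Their median log2 fold change was −1.15 on 2L, −1.23 on 2R, −1.43 on 3L, −1.27 on 3R and −1.06 on X, while the median of all tested genes on each of these arms was within −0.04 and 0.04. Introns of 15 members hold 31 annotated snoRNA genes on the same strand, among them 5 in RpL28 and 4 each in RpL3, RpL17 and RpL23A. The median log2 fold change was −1.36 for the 15 snoRNA hosts and −1.23 for the other 31. Across the 46 genes the log2 fold change had a Pearson correlation of −0.12 with log2 TPM in D. melanogaster Hmr2 and of −0.17 with log2 coding length. Exons of RpL24 (21.6% of bases) and RpL27 (16.0%) also overlap another protein-coding gene, CG7099 at 28.4 and 25.2 CPM in hybrids against 14.2 and 27.7 CPM in D. melanogaster Hmr2, and Idh3g at 171 and 181 CPM in hybrids against 191 and 158 CPM in D. melanogaster Hmr2.

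Small subunit genes were lower in hybrids as well. Of 38, 36 were tested and 33 were lower (15.0% of all tested genes were), with a median log2 fold change of −1.22. They included sta (−1.96), which encodes the small subunit protein RpSA, and RpS2 (−1.74). RpS19b, a paralog of RpS19a, had 0.124 and 0.118 CPM in hybrids, against 1.68 and 2.00 CPM in D. melanogaster Hmr2. Of the 8 large subunit genes or paralogs outside the 46, 5 were tested and 4 were lower, with log2 fold changes of −1.39 for RpL22, −1.40 for RpL24-like, −1.30 for RpL7-like and −1.07 for RpLP0-like. RpL41 had −0.27 (adjusted p = 0.499). RpL22-like, RpL10Aa and RpL37-2 were at a few counts at most. The mitochondrial large subunit, a separate ribosome with separate genes, had 10 of 47 lower (21.3%, near the 15.0% of all tested genes), with a median of −0.50 and with mRpL2 (−1.32) and mRpL27 (−1.06) lowest.

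Ribosome assembly genes and translation factors were lower in part. Of 24 ribosome biogenesis genes, 16 were lower (66.7%, where 15.0% of all tested genes were), with a median of −0.69, led by Fib (−1.87), the methyltransferase of box C/D snoRNPs, nclb (−1.86) and NHP2 (−1.26). Of 11 translation factors, 5 were lower (45.5%, where 15.0% of all tested genes were), among them Rack1 (−1.23) and eEF1beta (−1.10). Only 1 was higher, eEF1alpha2 (1.33), where 6.8% of all tested genes were. The counts of these lists are descriptions, and no difference between lists was tested.

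**Figure D5:**
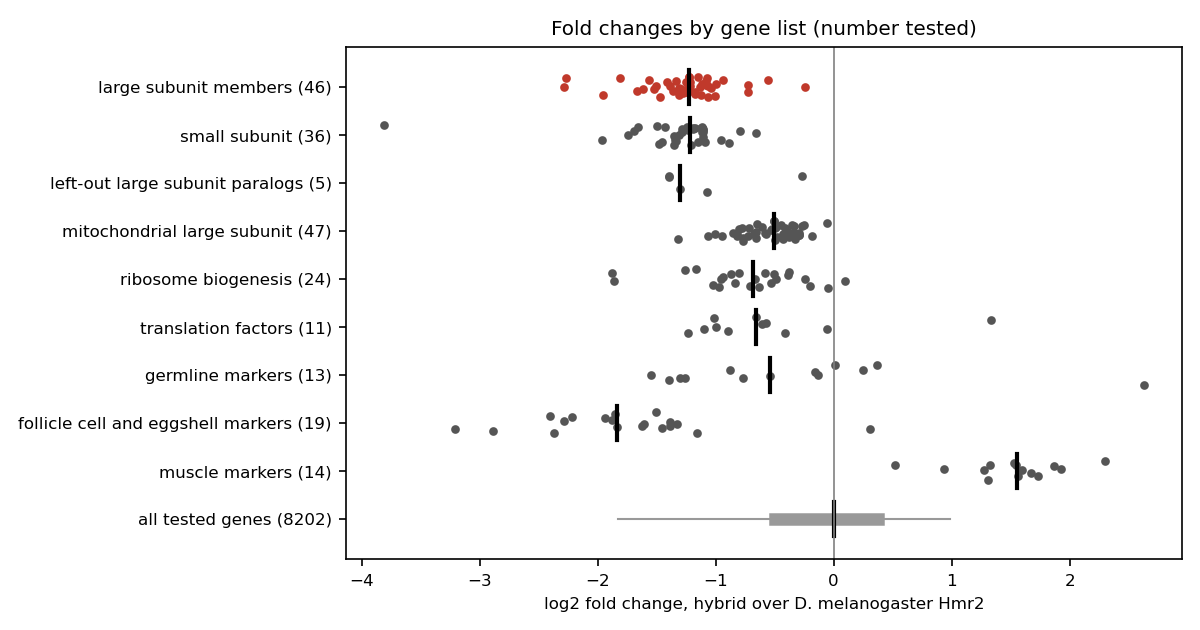
Log2 fold change, hybrid over D. melanogaster Hmr2, of each tested gene of 9 lists, with the median as a black bar. The bottom row gives all 8202 tested genes (thick bar from the 25th to the 75th percentile, thin bar from the 5th to the 95th). The large and small subunits centre on −1.23 and −1.22, the mitochondrial large subunit on −0.50 and muscle markers on 1.56.

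Markers of the cell types in an ovary preparation also differed between the groups. Of 19 tested follicle cell and eggshell markers, 16 were lower in hybrids (84.2%, where 15.0% of all tested genes were), with a median log2 fold change of −1.83 and with Cp7Fa (−3.21), tj (−2.89) and Cp19 (−2.40) lowest. Their summed level was 2994 and 4181 CPM in hybrids, against 16482 and 9971 CPM in D. melanogaster Hmr2. Of 13 tested germline markers 7 were lower (53.8%) and 1 higher, with a summed level of 4522 and 4590 CPM in hybrids, against 5489 and 6054 CPM in D. melanogaster Hmr2. Orb (−1.54) and pgc (−1.40) were lower and bgcn (2.63) was higher. Of 14 tested muscle markers 12 were higher, where 6.8% of all tested genes were, with a summed level of 2668 and 2514 CPM in hybrids, against 1166 and 930 CPM in D. melanogaster Hmr2, led by Mlc2 (2.29), sls (1.93) and wupA (1.87). No marker of these lists was at 0 in all 4 libraries. The summed eggshell level was 1.65 times as high in D. melanogaster Hmr2 replicate 1 as in replicate 2, and the summed level of the 46 large subunit genes was 1.62 times as high. Members of the eggshell list differed, with Cp36 at 2736 and 1187 CPM in replicates 1 and 2 and dec at 1146 and 1254 CPM. The same ratio of sums was 1.64 for the small subunit, 1.45 for the left-out paralogs and 1.35 for the mitochondrial large subunit. It was 1.31 for translation factors, 1.25 for muscle markers, 1.09 for ribosome biogenesis genes and 0.907 for germline markers. The part of cell composition in the lower large subunit levels was not tested.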

How the data were processed

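Ovarian polyA RNA was sequenced with a directional kit in 6 libraries, 2 each from F1 hybrids, D. melanogaster Hmr2 and D. simulans w501. The authors quantified reads with kallisto 0.50.0 on merged RefSeq transcripts of both species and summarised them per gene with tximport, and deposited estimated counts and TPM for each gene and library. The count column of D. melanogaster Hmr2 replicate 2 carries the name of its TPM column and was read as counts from its place and its values, and 6 length columns naming no sample were not used. Estimated counts were rounded. D. melanogaster rows of the hybrid and D. melanogaster Hmr2 libraries were filtered (filterByExpr, minimum count 10), scaled by TMM and tested with edgeR 4.0.16 (quasi-likelihood test, Benjamini-Hochberg adjustment, threshold 0.05, R 4.3.3). DESeq2 1.42.0 was an alternative. The SE of a log2 fold change was derived from it and the F statistic. Library depths were 12981002 to 22363396 estimated counts. The 95% Wilson intervals of the shares of D. melanogaster counts cover counting error only. Named were all members passing adjusted p and 2-fold, the 6 highest and 6 lowest fold changes, members with a set role, those with over 5% D. simulans reads, at most 3 called genes of each other list with the largest fold changes, and all left-out large subunit paralogs, and vas, osk and nanos were added to check the tissue. The members and lists were chosen with earlier results of these data known. Coordinates are those of RefSeq Release 6, and gene structures those of Ensembl on the same assembly, where all 46 members had the same span. Alternatives were other scalings, filters, tools, blocks and left-out libraries. The values of 1 member are in the counts and medians and are not reported here by name. The D. simulans alleles and the promoter sequences were not analysed here.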

Additional observations from a re-analysis of the deposited data

How the results depend on the processing

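The count of members called lower was 41 in the main fit. It stayed between 37 and 44 under other size factors, DESeq2, both other filters, TMM without ribosomal protein genes, all 3 groups in the fit and subtraction of D. simulans reads (where the call on RpL39 is not usable). No member was called higher under any alternative. Leaving out a library gave 6 to 46 members called lower, 6 to 44 past 2-fold and medians between −1.58 and −0.83. The lone library of an arm was then assumed to vary like the other group. RpL39 ran from −0.52 without D. melanogaster Hmr2 replicate 2 to 0.037 without replicate 1, where its direction reversed. Scaling by library totals over both species, which keeps the loss of D. melanogaster gene dose, moved the median of all tested genes by −0.93 and the median of the members to −2.14, which is −1.21 relative to all genes. All 46 members were called lower on that scale, where the dose loss shared by all genes counts as a fall. With the replicate number as a block, 42 members were lower, 39 past 2-fold, and the median was −1.19. Deviations of same-numbered libraries were uncorrelated (−0.00016), so the numbers were not taken as pairing the libraries. The planned promoter motif description was not run. No member had fewer than 1043 counts in a hybrid or D. melanogaster Hmr2 library, so the spread between libraries, not counting error, limits these values.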
